A study of Homo sapiens with 6 samples.

Results

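The 10 enzymes of mitochondrial fatty acid oxidation CPT1A, CPT2, ACADM, ACADS, ACADVL, HADHA, HADHB, HADH, ECI1 and ACAA2 were chosen by name, out of 16330 genes in the deposited tables. All 10 were present in both tables, and all 10 were among the 12671 genes that passed the filter on low counts. Their RNA was read in HN12, a cell line from a human squamous carcinoma of the head and neck, after 24 h with CPI-613 (3 libraries) or with the solvent DMSO, labelled Control (3 libraries). CPI-613, also known as devimistat, resembles lipoate, the cofactor of its targets in mitochondria, the dehydrogenase complexes of pyruvate and 2-oxoglutarate. All libraries came from the same parental line with no genetic change named, all cultures had DMEM with serum, penicillin and streptomycin, and the dose of CPI-613 is not given in the sources used here. Whether replicates came from separate cultures is not stated, so the p-values reflect how far these libraries differ from each other, and that spread may be technical.

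Mitochondrial fatty acid oxidation shortens fatty acids to acetyl-CoA, which enters the tricarboxylic acid cycle, and passes electrons to the respiratory chain. Long-chain acyl groups cross into the matrix as carnitine esters, made by CPT1 at the outer membrane and turned back to acyl-CoA by CPT2 at the inner membrane. Each round then runs through an acyl-CoA dehydrogenase, a hydratase, a hydroxyacyl-CoA dehydrogenase and a thiolase, with ECI1 moving double bonds of unsaturated chains into a position the pathway can use. In squamous epithelium and its carcinomas the pathway works beside strong glycolysis, and malonyl-CoA, the first product of fatty acid synthesis, inhibits CPT1.

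The libraries held 11531942 to 15486513 estimated counts, and 12283 to 12699 genes had at least 10 counts. The 10 squamous epithelium markers, among them KRT5, KRT14 and TP63, were all above 1 FPKM in every library, with a summed level of 5396 to 9334 FPKM in CPI-613 libraries and 6258 to 8311 FPKM in Control libraries. Of the leukocyte markers 3 of 8 were measured here; their sum was 28.7 to 46.5 FPKM in CPI-613 libraries and 43.2 to 70.8 FPKM in Control libraries, made up by CD68 and CD14, while the leukocyte-defining PTPRC was at most 0.06 FPKM in CPI-613 and 0.07 FPKM in Control libraries. Of the endothelial markers none of 4 exceeded 1 FPKM in every library, with sums of 0.03 to 0.08 FPKM with CPI-613 and 0.26 to 0.63 FPKM in Control. Of 6 fibroblast markers 3 were measured and COL1A1 alone exceeded 1 FPKM in every library, with list sums of 5.46 to 5.72 FPKM with CPI-613 and 6 to 7.59 FPKM in Control. The part of these markers in the results was not tested. No sequencing batch or date is given in the labels. Libraries of the same group stood apart along the GC content of transcripts: in genes of 40% GC or less, CPI-613 replicate 3 lay below CPI-613 replicate 1 by a median log2 difference of -1.87, and in genes of 60% to 65% GC it lay above by 0.83. Control replicate 2 differed from Control replicates 1 and 3 in the same direction, by -0.54 and 0.32 in those GC classes. For this reason the log2 fold changes of the 10 enzymes are given with TMM scaling alone and with a correction of every library for its trend over GC content and transcript length (the corrected fit).

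None of the 10 enzymes was called with CPI-613 by edgeR's quasi-likelihood test with Benjamini-Hochberg adjustment over all genes at 0.05, where 246 genes (1.94%) were called higher and 157 (1.24%) lower. In the same edgeR fit, with an unadjusted p under 0.05, CPT1A, ACADVL, ECI1 and ACAA2 were higher and none of the 10 was lower, against 8.45% of all genes higher and 5.93% lower. In CPT1A, ACADVL and ACAA2 all CPI-613 libraries lay above all Control libraries in CPM (counts per TMM-scaled library size), as did 11.8% of all genes, and in none of the 10 did they lie below, as in 9.18% of all genes. The estimates of 8 enzymes were above 0 and those of ACADM and HADH below 0. Of all 12671 genes tested, 6565 had estimates above 0 and 6106 below 0. The median log2 fold change was 0.32 over the 10 and 0.02 over all genes tested. In the corrected fit CPT1A, ACADVL and ECI1 were called higher and none lower, against 6.65% of all genes higher and 5.01% lower, and the median was 0.21 over the 10 and 0.04 over all genes. DESeq2 called CPT1A alone higher (Benjamini-Hochberg adjusted p = 0.0372) and none lower, against 3.87% of all genes higher and 3.17% lower. In bulk RNA, fewer cells expressing a gene and less of its RNA per cell cannot be told apart.

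**Figure D1:**
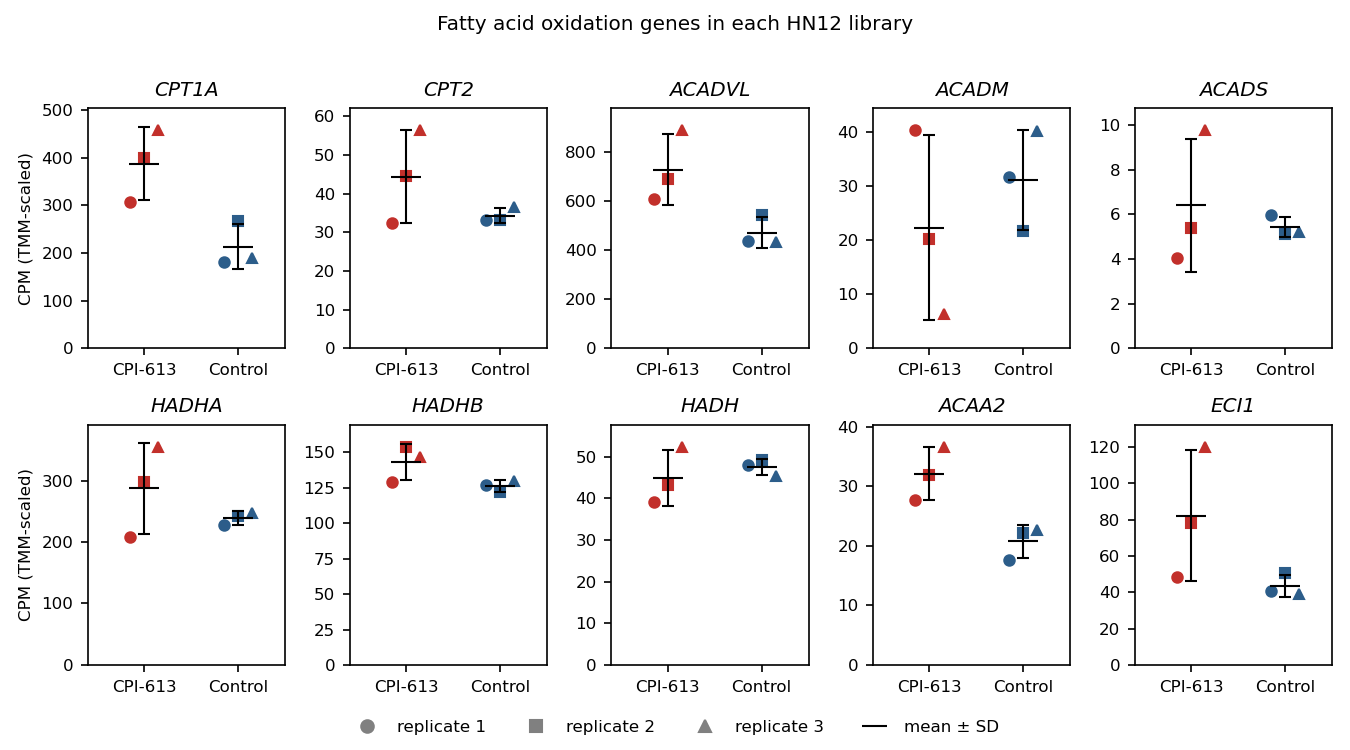
CPM (TMM-scaled, linear axes from 0) of each of the 10 genes in the 3 CPI-613 and the 3 Control libraries, with points for replicates 1 to 3 and bars for mean ± SD. CPT1A, ACADVL and ACAA2 are the genes whose CPI-613 points all lie above the Control points, and ACADM is the one with CPI-613 replicate 3 (6.43 CPM) far under replicate 1 (40.4 CPM).

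The sequences upstream of the start are shown for the pair of genes that share one and for the 3 genes called in the corrected fit. All 10 genes matched the RefSeq promoter table (GRCh38.p14), from which the 250 bases before each gene's start were read on the gene's strand. Each window ends at the outer edge of the gene's RefSeq record. The start of each gene's main transcript was not looked up and may lie further inside the gene. The window then need not be the promoter of that transcript. Which of a gene's starts HN12 cells use was not measured here. Capitals mark the GC box GGGCGG, or its complement, the element known for binding SP1.
HADHA, chr2:26244633-26244882, minus strand: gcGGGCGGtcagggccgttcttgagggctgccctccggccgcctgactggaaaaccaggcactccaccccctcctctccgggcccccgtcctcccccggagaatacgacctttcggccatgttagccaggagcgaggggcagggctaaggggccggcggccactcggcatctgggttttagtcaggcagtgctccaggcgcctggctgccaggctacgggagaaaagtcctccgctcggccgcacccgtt
HADHB, chr2:26244689-26244938, plus strand: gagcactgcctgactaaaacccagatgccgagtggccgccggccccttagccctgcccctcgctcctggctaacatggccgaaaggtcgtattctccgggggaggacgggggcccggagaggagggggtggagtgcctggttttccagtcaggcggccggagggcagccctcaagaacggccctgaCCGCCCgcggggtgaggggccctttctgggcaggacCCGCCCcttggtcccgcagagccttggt
CPT1A, chr11:68844278-68844527, minus strand: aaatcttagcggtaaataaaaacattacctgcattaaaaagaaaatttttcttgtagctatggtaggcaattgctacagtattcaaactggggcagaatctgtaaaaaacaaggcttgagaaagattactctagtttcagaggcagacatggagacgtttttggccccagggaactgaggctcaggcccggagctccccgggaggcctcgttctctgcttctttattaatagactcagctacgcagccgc
ACADVL, chr17:7216875-7217124, plus strand: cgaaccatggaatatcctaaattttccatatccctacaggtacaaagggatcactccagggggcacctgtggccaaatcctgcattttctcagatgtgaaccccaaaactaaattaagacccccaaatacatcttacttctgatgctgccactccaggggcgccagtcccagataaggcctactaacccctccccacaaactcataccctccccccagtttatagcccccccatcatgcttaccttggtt
ECI1, chr16:2251588-2251837, minus strand: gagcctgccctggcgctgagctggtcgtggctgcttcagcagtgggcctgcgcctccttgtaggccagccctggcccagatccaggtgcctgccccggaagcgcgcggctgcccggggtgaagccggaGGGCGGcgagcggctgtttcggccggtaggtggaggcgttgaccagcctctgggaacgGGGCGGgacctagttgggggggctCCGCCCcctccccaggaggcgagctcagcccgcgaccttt
HADHA and HADHB start on opposite strands with 306 bases between their starts, and 194 bases are common to both sequences, read in opposite directions. In these windows HADHA and HADHB hold a GC box at 1 and 2 places, ECI1 at 3, and CPT1A and ACADVL at none. The box of HADHA is the same 6 bases as the first box of HADHB, within the shared stretch, so that 1 site is counted for both genes. Both strands were searched, and, with that site counted for each gene, 7 of the 10 genes held a GC box, against 42.6% of all 35116 promoters of this length in the table. Those promoters include noncoding genes and outnumber the 16330 genes of the deposited tables. They are not a set matched to the 10 in expression or GC content. The nuclear receptor core site AGGTCA was in 0 of the 10 and in 12.1% of all promoters. The longer sites that contain it, a direct repeat of AGGTCA with any 1 base between, known for PPAR and RXR, and the site TNAAGGTCA known for the estrogen-related receptors, were in 0 of the 10, and in 0.0171% and 0.854% of all promoters. The ATF4 and C/EBP composite site TGATGNAAT was in 0 of the 10 and in 0.888% of all, and the nuclear respiratory factor 1 site (GCGC, any 2 bases, GCGC) in 0 of the 10 and in 7.16% of all. The CCAAT box was in 1 of the 10, HADH, and in 32% of all. These matches describe letters in this window and say nothing of factors bound elsewhere. The 250 bases of CPT1A and ACADVL were 44.4% and 49.6% GC, below the other 8 (62.8% to 74.4%), and the median of all promoters was 58%. The GC content of these windows of CPT1A and ACADVL, and their lack of a GC box, need not hold for the promoters of the main transcripts. ACADVL also overlaps its neighbour DLG4 on the other strand by 2926 bases.

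Both carnitine palmitoyltransferases had estimates above 0, and that of CPT1A was the larger. CPT1A (gene ID 1374, chromosome 11 at 68754620 to 68844277, GRCh38) encodes the outer-membrane enzyme that joins long-chain acyl groups to carnitine, the step known to control entry into the pathway. It measured 306, 398 and 457 CPM in CPI-613 replicates 1 to 3, against 182, 267 and 190 CPM in Control replicates 1 to 3. Every CPI-613 library was above every Control library, with the smallest gap between CPI-613 replicate 1 and Control replicate 2. The means were 387 ± 76.3 CPM with CPI-613 and 213 ± 47.1 CPM in Control (SD, n = 3 each), a 1.81-fold difference with a log2 fold change of 0.86 (SE 0.24) and no call (adjusted p = 0.126 by edgeR with Benjamini-Hochberg). The corrected fit gave 0.79 (SE 0.20) and called it higher (adjusted p = 0.0408 by edgeR, range over the alternatives 0.0161 to 0.547). Here and below, such a range covers all alternatives, with and without the correction. In the corrected fit, leaving out Control replicate 1, Control replicate 3, CPI-613 replicate 2 or CPI-613 replicate 3 ended the call of CPT1A (edgeR, adjusted p = 0.176, 0.171, 0.141 and 0.0717). With TMM scaling alone it was called once CPI-613 replicate 1 was left out, at 1.01 (SE 0.22; edgeR, adjusted p = 0.0384), where 3.66% of all genes were called higher.

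CPT2 (gene ID 1376, chromosome 1 at 53196824 to 53214197) encodes the inner-membrane enzyme that returns acyl groups to CoA. It measured 32.4, 44.5 and 56.4 CPM in CPI-613 replicates 1 to 3, against 33.2, 33.3 and 36.5 CPM in Control replicates 1 to 3. The groups overlapped, since CPI-613 replicate 1 was the lowest of the 6 libraries and CPI-613 replicate 3 the highest. The log2 fold change was 0.37 (SE 0.25; edgeR, Benjamini-Hochberg adjusted p = 0.622), and 0.24 (SE 0.15) in the corrected fit. CPT2 overlaps its neighbour CZIB by 99 bases.

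The 3 acyl-CoA dehydrogenases, which take the first electrons from acyl-CoA of long, medium and short chain length, had log2 estimates from -0.48 in ACADM to 0.63 in ACADVL. ACADVL (gene ID 37, chromosome 17 at 7217125 to 7225266), the very-long-chain enzyme of the inner membrane, measured 608, 691 and 890 CPM in CPI-613 replicates 1 to 3, against 440, 546 and 433 CPM in Control replicates 1 to 3. Again all CPI-613 libraries were above all Control libraries. The means were 730 ± 145 CPM with CPI-613 and 473 ± 63 CPM in Control (SD, n = 3 each), with a log2 fold change of 0.63 (SE 0.21) and no call (adjusted p = 0.219 by edgeR with Benjamini-Hochberg). With the correction it was 0.49 (SE 0.12) and called higher (adjusted p = 0.0338 by edgeR; range over the alternatives 0.0294 to 0.759). This call was lost without any one of the 3 Control libraries or without CPI-613 replicate 2 (edgeR, adjusted p of 0.168, 0.0588 and 0.156 without Control replicates 1, 2 and 3, and 0.123 without CPI-613 replicate 2). ACADVL overlaps DLG4 on the other strand by 2926 bases, and with no strand setting stated, reads of the shared stretch cannot be told apart. DLG4 had 247 to 308 counts in CPI-613 libraries and 265 to 312 counts in Control libraries, while ACADVL had 8522 to 11493 and 5610 to 7026 counts.

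ACADM (gene ID 34, chromosome 1 at 75724709 to 75763679), the medium-chain enzyme, had the widest spread of the 10 for its level. It measured 40.4, 20.3 and 6.43 CPM in CPI-613 replicates 1 to 3, against 31.7, 21.8 and 40.2 CPM in Control replicates 1 to 3. CPI-613 replicate 1 was the highest of all 6 libraries and CPI-613 replicate 3 the lowest. The log2 fold change of -0.48 (SE 0.60) was smaller than its error (edgeR, Benjamini-Hochberg adjusted p = 0.8), and it was not called when CPI-613 replicate 3 was left out (-0.04) or CPI-613 replicate 1 (-1.22). Its longest transcript had 41% GC, the lowest of the 10. The trend over all genes placed CPI-613 replicate 1 at 0.42 and CPI-613 replicate 3 at -0.86 on the log2 scale for a gene of this GC content and length, and after its removal the fold change was -0.33 (SE 0.31). ACADS (gene ID 35, chromosome 12 at 120725826 to 120740008), the short-chain enzyme, was the least abundant, with 57, 70 and 126 counts in CPI-613 replicates 1 to 3 and 76, 66 and 68 counts in Control replicates 1 to 3. Scaled, these were 4.06, 5.38 and 9.76 CPM with CPI-613, against 5.96, 5.13 and 5.19 CPM in Control. CPI-613 libraries held both the lowest and the highest value, and the log2 fold change of 0.24 (SE 0.37; edgeR, Benjamini-Hochberg adjusted p = 0.834) turned to -0.02 (SE 0.22) in the corrected fit.

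**Figure D2:**
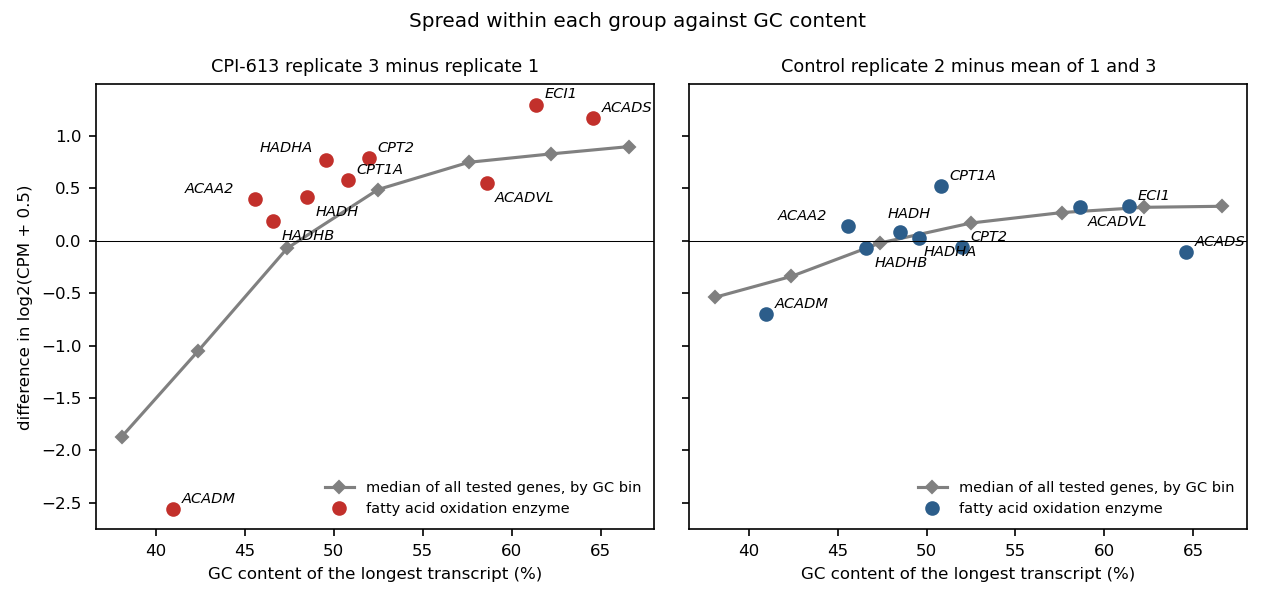
Difference in log2(CPM + 0.5) between libraries of the same group, against the GC content of the longest transcript, for CPI-613 replicate 3 minus replicate 1 (left) and Control replicate 2 minus the mean of replicates 1 and 3 (right). Points are the 10 enzymes and the grey line joins medians of all tested genes by GC class, from -1.87 to 0.90 on the left; ACADM lies at -2.56 and ECI1 at 1.30 there.

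In the plot of spread against GC content, CPI-613 replicate 3 lay above CPI-613 replicate 1 in 9 of the 10 enzymes, by 0.19 to 1.30 on the scale of log2(CPM + 0.5). The largest of these differences were in ECI1 (1.30, 61.4% GC) and ACADS (1.17, 64.6% GC), and the smallest in HADHB (0.19, 46.6% GC). ACADM was the exception, with a difference of -2.56. The same count was not made over all genes. HADHA (0.77), HADH (0.42), ACAA2 (0.40) and HADHB lay above the median of all genes in their class of 45% to 50% GC (-0.07). ACADVL (0.55) and ACADM lay below the medians of their classes (0.75 and -1.05). Between Control replicate 2 and the mean of Control replicates 1 and 3 the enzymes differed by -0.70 in ACADM to 0.52 in CPT1A. Why libraries differ along GC content was not tested.

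The trifunctional protein carries the hydratase, hydroxyacyl-CoA dehydrogenase and thiolase steps for long chains, with HADHA as its alpha and HADHB as its beta subunit. The 2 genes lie side by side on chromosome 2, HADHA (gene ID 3030) at 26190635 to 26244632 and HADHB (gene ID 3032) at 26244939 to 26290465, and share the stretch between their starts printed above. HADHA measured 209, 298 and 355 CPM in CPI-613 replicates 1 to 3, against 227, 242 and 248 CPM in Control replicates 1 to 3. HADHB measured 129, 154 and 147 CPM in CPI-613 replicates 1 to 3, against 127, 122 and 130 CPM in Control replicates 1 to 3. In both genes CPI-613 replicate 1 lay within or under the Control values and CPI-613 replicates 2 and 3 above them. Neither was called, with log2 fold changes of 0.27 (SE 0.22) for HADHA and 0.18 (SE 0.16) for HADHB (edgeR, Benjamini-Hochberg adjusted p = 0.715 and 0.732), and 0.18 (SE 0.16) and 0.17 (SE 0.12) in the corrected fit. The HADHB estimate turned to -0.02 when scaled by library size only, a setting that moved the median of all genes from 0.02 to -0.17. The ratio of HADHA to HADHB in FPKM (counts divided by transcript length and library total, the authors' length-scaled unit) was 1.06, 1.26 and 1.57 in CPI-613 replicates 1 to 3 and 1.16, 1.29 and 1.25 in Control replicates 1 to 3, with means of 1.3 ± 0.258 and 1.23 ± 0.0654 (SD, n = 3 each). The CPI-613 ratios thus lay on both sides of the Control ratios. HADHA overlaps GAREM2 by 13670 bases, which had 72 to 120 counts in CPI-613 and 105 to 137 counts in Control libraries.

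For shorter chains the last steps fall to separate matrix enzymes, of which HADH had an estimate just under 0 and ACAA2 one above 0. HADH (gene ID 3033, chromosome 4 at 107989889 to 108035171), the medium- and short-chain hydroxyacyl-CoA dehydrogenase, measured 39.1, 43.2 and 52.4 CPM in CPI-613 replicates 1 to 3, against 48, 49.3 and 45.4 CPM in Control replicates 1 to 3. These groups overlapped, and the log2 fold change was -0.08 (SE 0.20; edgeR, Benjamini-Hochberg adjusted p = 0.885), and -0.17 (SE 0.12) in the corrected fit. In FPKM, which the authors scaled by library total without TMM, HADH was 26.03, 25.56 and 27.84 with CPI-613 against 33.85, 32.31 and 31.13 in Control, with all CPI-613 libraries below, as in 14.1% of genes on that scale. Limma on log2(FPKM + 1) gave -0.28 (SE 0.10) and no call (Benjamini-Hochberg adjusted p = 0.251), so the separation of the groups in HADH depended on the scaling. ACAA2 (gene ID 10449, chromosome 18 at 49782164 to 49813533), a thiolase that releases acetyl-CoA, measured 27.7, 31.9 and 36.6 CPM in CPI-613 replicates 1 to 3, against 17.6, 22.1 and 22.6 CPM in Control replicates 1 to 3. All CPI-613 libraries were above all Control libraries. The means were 32.1 ± 4.49 CPM with CPI-613 and 20.8 ± 2.74 CPM in Control (SD, n = 3 each), with a log2 fold change of 0.62 (SE 0.23; edgeR, Benjamini-Hochberg adjusted p = 0.262). The corrected fit gave 0.73 (SE 0.25) and no call (edgeR, adjusted p = 0.11), and with CPI-613 replicate 1 left out 0.92 and a call (edgeR, adjusted p = 0.0246).

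ECI1 (gene ID 1632, chromosome 16 at 2239402 to 2251587), the isomerase that lets double bonds enter the pathway, had the largest estimate of the 10 with TMM scaling. It measured 48.3, 78.3 and 120 CPM in CPI-613 replicates 1 to 3, against 40.9, 50.3 and 39 CPM in Control replicates 1 to 3. The groups overlapped by 1 library, CPI-613 replicate 1, which lay under Control replicate 2. The means were 82.2 ± 36 CPM with CPI-613 and 43.4 ± 6.05 CPM in Control (SD, n = 3 each), a 1.89-fold difference with a log2 fold change of 0.92 (SE 0.34) and no call (adjusted p = 0.259 by edgeR with Benjamini-Hochberg). Leaving out CPI-613 replicate 3 gave 0.55 (SE 0.26), and leaving out CPI-613 replicate 1 gave 1.20 (SE 0.25) and a call (edgeR, adjusted p = 0.0349). After the correction it was 0.68 (SE 0.12) and called higher (adjusted p = 0.0111 by edgeR; range over the alternatives 0.00571 to 0.74). In that fit the estimate was 0.62 to 0.76 with any 1 library left out, and the call ended without CPI-613 replicate 2, Control replicate 1 or Control replicate 3 (edgeR, adjusted p = 0.0674, 0.0687 and 0.0703). ECI1 overlaps the noncoding ECI1-AS1 by 1275 bases, so reads of both cannot be told apart there.

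**Figure D3:**
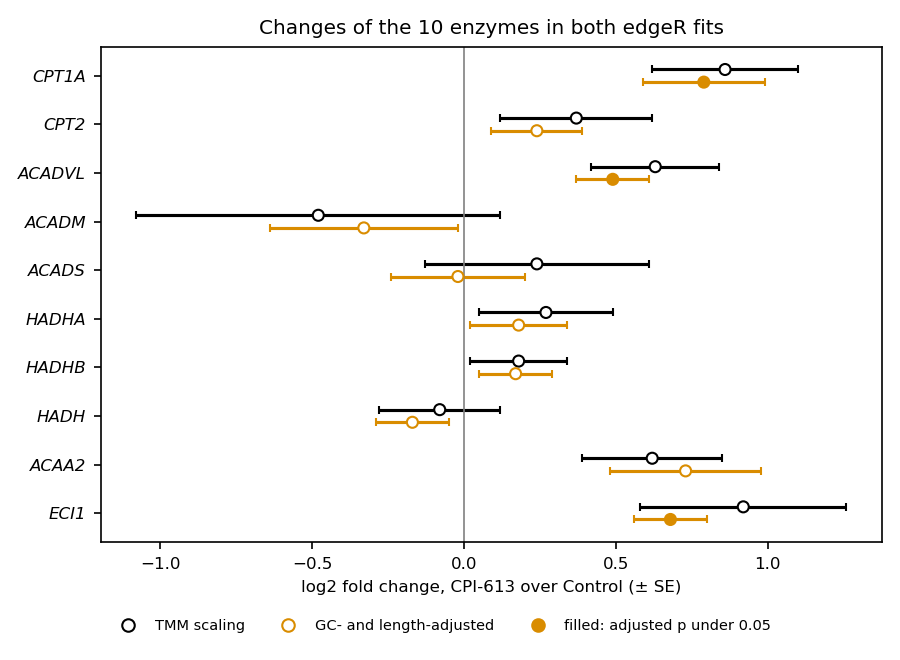
Log2 fold change of CPI-613 over Control with its SE for each enzyme, with TMM scaling and with the correction for GC content and length (labelled GC- and length-adjusted in the plot); filled points have a Benjamini-Hochberg adjusted p under 0.05 over all genes. The filled points are CPT1A (0.79), ACADVL (0.49) and ECI1 (0.68), all in the corrected fit.

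Levels between the genes were compared in FPKM. ACADVL was the most abundant, with 344 ± 30.6 FPKM with CPI-613 and 258 ± 25.5 FPKM in Control (SD, n = 3 each), at the 98.5 percentile of all genes. It made up 48% ± 1.58 of the summed FPKM of the 10 with CPI-613 and 43.8% ± 2.51 in Control, and the groups overlapped at CPI-613 replicate 2 (46.2%) and Control replicate 2 (46.6%). HADHA came next with 97.5 ± 15.2 FPKM with CPI-613 and 94.5 ± 3.51 FPKM in Control, followed by HADHB with 75.6 ± 5.84 and 76.9 ± 4.77 FPKM, and the ranges of these neighbours overlapped with CPI-613 but not in Control. CPT1A followed with 72.1 ± 6.7 FPKM with CPI-613, where its range overlapped that of HADHB, and 46.1 ± 8.29 FPKM in Control, where it was below HADHB in every library. ECI1 had 58.6 ± 19.5 FPKM with CPI-613 and 36.6 ± 3.87 FPKM in Control, and HADH 26.5 ± 1.2 and 32.4 ± 1.36 FPKM; in Control these neighbours overlapped. With CPI-613 the lower end held CPT2 (16.6 ± 2.68 FPKM), ACADM (11 ± 9.22 FPKM), ACAA2 (11 ± 0.31 FPKM) and ACADS (3.57 ± 1.27 FPKM). In Control these levels were 15 ± 1.03 FPKM for CPT2, 16.7 ± 5.18 FPKM for ACADM, 8.27 ± 0.903 FPKM for ACAA2 and 3.59 ± 0.428 FPKM for ACADS. The ranges of CPT2 and ACADM overlapped in both groups. The sum of the 10 was 658, 711 and 779 FPKM in CPI-613 replicates 1 to 3 and 577, 616 and 572 FPKM in Control replicates 1 to 3, so that all CPI-613 libraries lay above all Control libraries, with ACADVL the largest part of each sum. Of single genes on this scale, 7.16% had all CPI-613 libraries above and 14.1% had all below. The groups were not compared on a sum without ACADVL.

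The count table lists RefSeq transcripts, and reads common to several transcripts had been split between them by the authors' counter. ACADS, HADHA and ACAA2 had 1 transcript each, and in 6 of the other 7 genes 1 transcript held 86.8% to 98.3% of the gene's counts in both groups' means. In ACADVL the main transcript NM_000018 held 63.6% ± 1.84 with CPI-613 and 69.2% ± 1.28 in Control (SD, n = 3 each), and NM_001270448 the most of the rest. NM_001270448 held 21%, 21.6% and 19.9% in CPI-613 replicates 1 to 3, against 15.2%, 15.8% and 16.9% in Control replicates 1 to 3. Its shares did not overlap between the groups, with a mean difference of 4.88 percentage points (exact two-sided permutation test over libraries, p = 0.1, the smallest p that 3 against 3 libraries allow; 0.15 with Benjamini-Hochberg adjustment over 3 shares tested). In CPT2, NM_001330589 held 6.7%, 0% and 7.05% with CPI-613, against 7.58%, 15% and 17.1% in Control, from 0 to 51.3 and from 32.12 to 81.76 estimated counts (same exact permutation test, p = 0.1, 0.15 adjusted). In ACADM, NM_001286042 held 11.6% ± 1.99 with CPI-613 and 7.42% ± 7.56 in Control, with overlapping groups (same exact permutation test, n = 3 each, p = 0.5). Minor transcripts were tested if their mean share was at least 10% in either group. NM_001330589 passed through Control alone (mean 13.2%, against 4.58% with CPI-613), and NM_001286042 through CPI-613 alone. Their selection used the group means that the test then compared, so their p-values cannot decide whether the shares differ. The adjustment covered only the 3 shares chosen in this way.

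**Figure D4:**
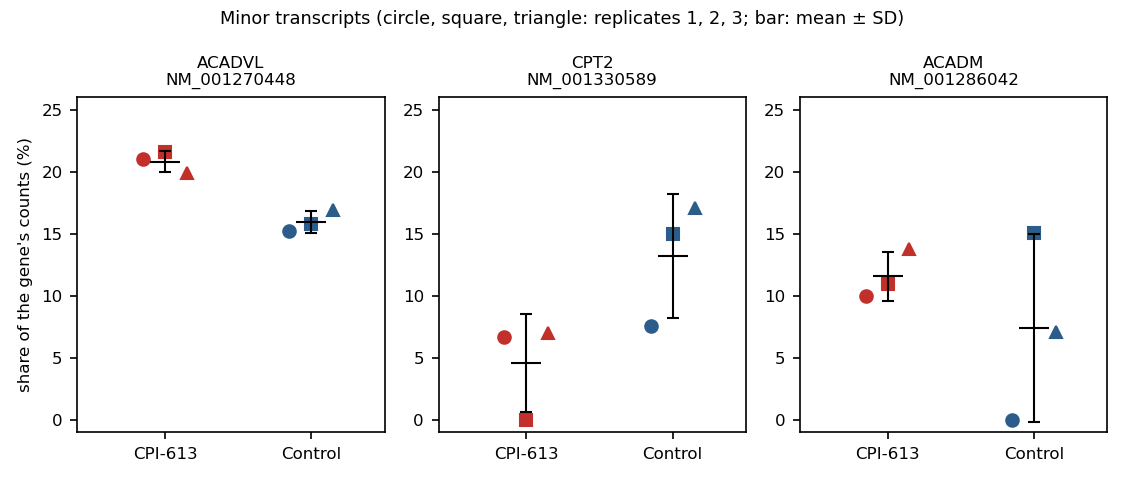
Share of each gene's estimated counts in a minor transcript of ACADVL, CPT2 and ACADM, per library (points) with mean ± SD (bars). For ACADVL the CPI-613 shares are 19.9% to 21.6% and the Control shares 15.2% to 16.9%.

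Related genes of the pathway were read from lists of the same fit. Of 17 tested other matrix oxidation enzymes none was called by edgeR, none had an unadjusted p under 0.05, and the median log2 fold change was -0.01. Over all genes 8.45% were higher and 5.93% lower at that unadjusted p. ECHS1, the short-chain hydratase, measured 122 ± 51.6 CPM with CPI-613 and 105 ± 21.2 CPM in Control (SD, n = 3 each). ETFA and ETFB, which form the flavoprotein that accepts electrons from the acyl-CoA dehydrogenases, measured 111 ± 7.25 and 55.3 ± 26.4 CPM with CPI-613 and 109 ± 6.27 and 48.9 ± 9.02 CPM in Control. ETFDH, which hands these electrons to ubiquinone, measured 8.32 ± 2.65 CPM with CPI-613 and 9.78 ± 2.51 CPM in Control. Their log2 fold changes, 0.02 (SE 0.16) for ETFA, 0.18 (SE 0.37) for ETFB and -0.23 (SE 0.35) for ETFDH, were all smaller than their errors. Corrected, they were 0.22 (SE 0.22), 0.13 (SE 0.34) and -0.10 (SE 0.19), with no call. With the correction 1 of the 17 was called lower and none higher, against 5.01% and 6.65% of all genes. This was ACSF2, an acyl-CoA synthetase of the matrix, named after its values were seen. It measured 24 ± 6.92 CPM with CPI-613 and 36.3 ± 1.51 CPM in Control, with a log2 fold change of -0.59 (SE 0.27; adjusted p = 0.383 by edgeR) with TMM scaling and of -0.78 with the correction (SE 0.15; adjusted p = 0.017 by edgeR, range over the alternatives 0.0139 to 0.894), a call that ended without CPI-613 replicate 2, Control replicate 1 or Control replicate 3.

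Among 10 tested genes of the carnitine system and acyl-CoA synthetases edgeR called none, and the median was -0.01. An unadjusted p under 0.05 was reached by 2 above and 1 below Control, against 8.45% and 5.93% of all genes. CPT1B, the muscle form of CPT1, measured 40.7, 34.8 and 41.5 CPM in CPI-613 replicates 1 to 3, against 27.5, 25.2 and 26.5 CPM in Control replicates 1 to 3. All CPI-613 libraries were above, with a log2 fold change of 0.56 (SE 0.20; edgeR, Benjamini-Hochberg adjusted p = 0.235) and 0.46 (SE 0.21) in the corrected fit, and its gene lies within a CHKB-CPT1B read-through locus whose reads it may share. In FPKM CPT1A was 72.1 ± 6.7 and CPT1B 14.7 ± 2.15 with CPI-613, against 46.1 ± 8.29 and 11.4 ± 1.03 in Control. CPT1C, the brain form, had 3, 12 and 17 counts with CPI-613 and 19, 21 and 17 counts in Control. ACSL3, an acyl-CoA synthetase of the endoplasmic reticulum and lipid droplets, measured 310, 210 and 67.2 CPM in CPI-613 replicates 1 to 3 and 84, 54.3 and 98.7 CPM in Control replicates 1 to 3. Its log2 fold change was 1.31 (SE 0.52), not called, and 1.65 (SE 0.17) and called higher in the corrected fit (adjusted p = 0.00143 by edgeR, range over the alternatives 0.000584 to 0.727), for a transcript of 38.1% GC. The corrected call held with each of the 6 libraries left out, at 1.47 to 1.78. ACSL3 was the 1 gene of this list called in the corrected fit, which called 6.65% of all genes higher. ACSL4, which prefers arachidonate, measured 42.5 ± 37.9 CPM with CPI-613 and 32.3 ± 8.19 CPM in Control and was not called in either fit.

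Among 14 tested genes of peroxisomal oxidation edgeR called none; an unadjusted p under 0.05 was reached by 2, both below Control (5.93% of all genes were), and the median was -0.09. HSD17B4, a bifunctional enzyme of the peroxisomal pathway, measured 70.2 ± 25.6 CPM with CPI-613 and 74.7 ± 12 CPM in Control (SD, n = 3 each). The corrected fit called 2 of the 14 lower, against 5.01% of all genes, both named after their values were seen. CROT, the peroxisomal carnitine octanoyltransferase, measured 9.13, 6.69 and 3.64 CPM in CPI-613 replicates 1 to 3, against 17.2, 13 and 19.4 CPM in Control replicates 1 to 3, with a log2 fold change of -1.35 (SE 0.38; adjusted p = 0.132 by edgeR) with TMM scaling and a corrected one of -1.02 (SE 0.15; adjusted p = 0.00547 by edgeR, range over the alternatives 0.00547 to 0.48) that stayed called with each of the 6 libraries left out. ABCD3, a peroxisomal fatty acid transporter, measured 26.8 ± 18.1 CPM with CPI-613 and 51.7 ± 10.4 CPM in Control, with -0.94 (SE 0.48; adjusted p = 0.467 by edgeR) with TMM scaling and a corrected value of -0.63 (SE 0.13; adjusted p = 0.0214 by edgeR, range over the alternatives 0.0132 to 0.984) that was not called without CPI-613 replicate 2, Control replicate 1 or Control replicate 3.

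Among 16 tested regulators of the pathway edgeR called none, and the median was 0.19. An unadjusted p under 0.05 was reached by 1 above and 1 below Control, against 8.45% and 5.93% of all genes. ACACA, the carboxylase that makes malonyl-CoA for fatty acid synthesis, measured 333, 392 and 334 CPM in CPI-613 replicates 1 to 3, against 244, 223 and 258 CPM in Control replicates 1 to 3. All CPI-613 libraries were above all Control libraries. Its log2 fold change was 0.55 (SE 0.17), not called at an adjusted p = 0.167, and 0.55 (SE 0.12) and called higher in the corrected fit (adjusted p = 0.0255 by edgeR, range over the alternatives 0.00766 to 0.632), except with CPI-613 replicate 2, Control replicate 1 or Control replicate 3 left out. ACACB, the mitochondrial carboxylase whose malonyl-CoA is known to inhibit CPT1, had 3, 1 and 0 counts with CPI-613 and 2, 1 and 0 counts in Control, too few to test. RXRA, the partner of the PPAR receptors, measured 241 ± 82.9 CPM with CPI-613 and 269 ± 8.26 CPM in Control. In the corrected fit PRKAB2, a subunit of AMP-activated kinase, was also called higher and PPARGC1B, a coactivator of mitochondrial genes, lower, both named after their values were seen: PRKAB2 at 0.57 (SE 0.15) and PPARGC1B at -0.87 (SE 0.18) (edgeR, Benjamini-Hochberg adjusted p = 0.0477 and 0.0188). With TMM scaling neither was called, PRKAB2 at 0.23 (SE 0.30) and PPARGC1B at -0.84 (SE 0.23) (edgeR, adjusted p = 0.804 and 0.122). Over all genes the corrected fit called 6.65% higher and 5.01% lower. PRKAB2 measured 81.1, 64.2 and 38.7 CPM in CPI-613 replicates 1 to 3, against 57.4, 44.1 and 55.4 CPM in Control replicates 1 to 3, with overlapping groups. In the corrected fit PRKAB2 was called in 1 of the 6 fits with a library left out, the one without CPI-613 replicate 1, and PPARGC1B in 4, all but those without CPI-613 replicate 2 and Control replicate 1. PPARGC1B measured 11.6, 12.5 and 12.9 CPM in CPI-613 replicates 1 to 3, against 23, 24.1 and 18.9 CPM in Control replicates 1 to 3.

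Outside oxidation, 1 of 8 tested PPAR target genes rose and 1 fell, and 1 of 6 ketone body enzymes rose, against 1.94% of all genes called higher and 1.24% lower. ANGPTL4, an inhibitor of lipoprotein lipase, measured 59.4, 80 and 110 CPM in CPI-613 replicates 1 to 3, against 23.6, 11.8 and 24.9 CPM in Control replicates 1 to 3, a log2 fold change of 2.05 (SE 0.37; edgeR, Benjamini-Hochberg adjusted p = 0.0338). FABP5, a fatty acid binding protein, measured 67, 72.3 and 88.9 CPM with CPI-613 against 185, 149 and 234 CPM in Control, a log2 fold change of -1.32 (SE 0.23; adjusted p = 0.0295 by edgeR). ACAT2, a cytosolic thiolase that also starts the mevalonate pathway, measured 136, 174 and 219 CPM with CPI-613 against 71.6, 80.8 and 77.3 CPM in Control, a log2 fold change of 1.20 (SE 0.22; edgeR, Benjamini-Hochberg adjusted p = 0.0338). These 3 genes were also called in the corrected fit, where FABP5 and ACAT2 stayed called with each of the 6 libraries left out and ANGPTL4 did not without CPI-613 replicate 2 (edgeR, adjusted p = 0.0551). With TMM scaling alone none of the 3 was called without CPI-613 replicate 2, Control replicate 1 or Control replicate 3, and ANGPTL4 and ACAT2 were not called without Control replicate 2 (edgeR, adjusted p up to 0.15 for ANGPTL4, 0.191 for FABP5 and 0.215 for ACAT2). In the corrected fit VLDLR, a lipoprotein receptor, and AACS, which activates acetoacetate, were also called higher, both named after their values were seen, at 1.95 (SE 0.29) and 0.60 (SE 0.12) (adjusted p = 0.00546 and 0.0178 by edgeR). With TMM scaling they were 1.60 (SE 0.46) and 0.74 (SE 0.25) and not called (adjusted p = 0.14 and 0.212 by edgeR). Over all genes the corrected fit called 6.65% higher and 5.01% lower. In the corrected fit VLDLR stayed called with each of the 6 libraries left out, and AACS did not without CPI-613 replicate 2, Control replicate 1 or Control replicate 3. The medians were 0.24 over the PPAR target genes and 0.38 over the ketone body enzymes.

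**Figure D5:**
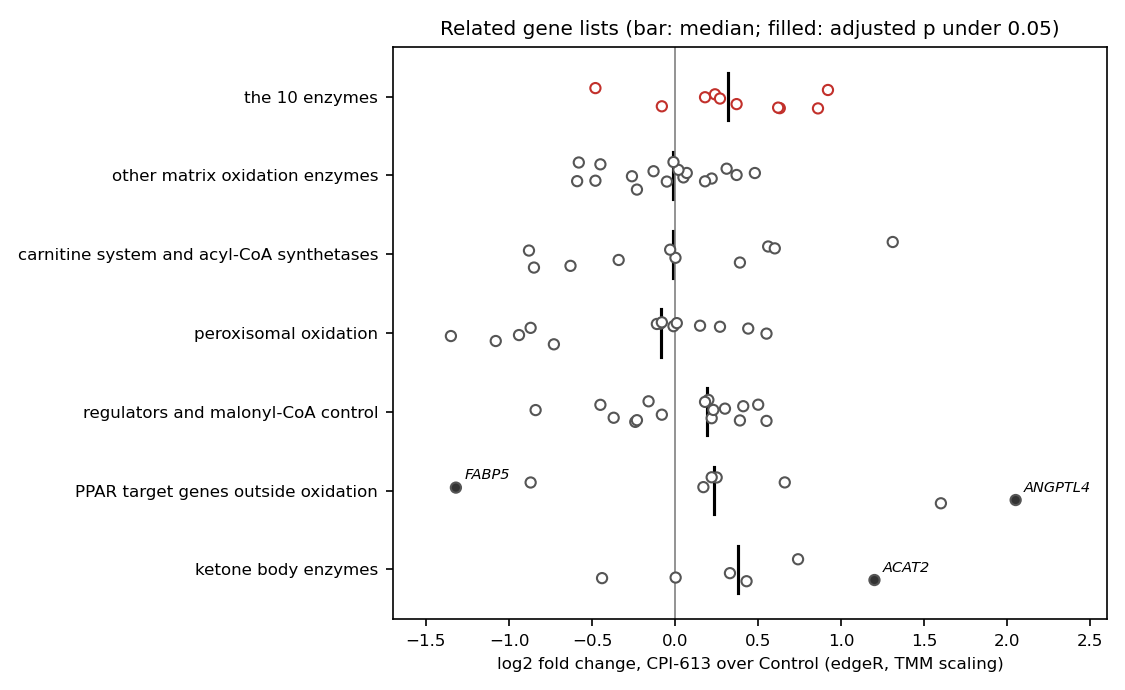
Log2 fold change of CPI-613 over Control (edgeR, TMM scaling) for each tested gene of the 10 enzymes and of related lists, with bars at the median and filled points for a Benjamini-Hochberg adjusted p under 0.05. The 10 enzymes have a median of 0.32 and no filled point; the filled points are ANGPTL4, FABP5 and ACAT2.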

How the data were processed

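Total RNA from 6 HN12 samples was read on a DNBSEQ platform after NEBNext Ultra II library preparation, as the labels' protocols state. CASAVA, STAR 2.5, HTSeq, edgeR 3.16.5, DESeq2 and hg38 are listed in the submitters' processing notes without roles. For strand use, annotation release and CPI-613 dose, no statement was found in the labels. The authors deposited estimated counts for 79031 RefSeq transcripts, which added up per gene to a whole number (within 0.03) in 87.8% of cases. The authors' second deposited table was taken as FPKM, counts divided by transcript length and library total: it names no unit, but over 1430 genes with 1 transcript and at least 100 counts the value per read was inversely proportional to the library total within 0.41%. Dates stood in place of values for 27 transcripts of CPI-613 replicate 1, none of the 10 enzymes; these transcripts were left out in all libraries.

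Counts were summed per gene and rounded. After filterByExpr (minimum count 10, total 15) and TMM scaling, edgeR 4.0.16 tested CPI-613 against Control by its quasi-likelihood test, with no covariate besides group and Benjamini-Hochberg adjustment over 12671 genes at 0.05. SE is the log2 fold change over the square root of F. The correction for GC content and length fitted splines to each library's deviations from gene means of log2 CPM (prior count 2), using the longest coding GENCODE 29 transcript, found for 99.5% of tested genes, and entered the fit as offsets. Symbols, coordinates and promoters are from RefSeq (GRCh38.p14). Genes without a symbol, 53 in number, took 0.0163% of counts. A run on simulated data served to check the scripts. That run is not offered here as evidence that the correction for GC content and length is accurate. No pair of libraries of the same group agreed within counting noise. Chi-square per degree of freedom was 3.86 between Control replicates 1 and 3, and 34.3 to 200 in the other pairs. Control replicates 1 and 3 were thus far closer than any other pair, and the fits still counted each as a separate library.

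The 10 enzymes and all lists were chosen with earlier results of these data known. Named genes are the 10; from each other list the called genes, or, in lists with no call, the 2 of highest CPM; CPT1B, CPT1C, both acetyl-CoA carboxylases, ETFA, ETFB and ETFDH; and transcripts with at least 10% of a gene's counts in 1 group. One gene that this rule names is not reported here. Alternatives were other scalings and filters, DESeq2 1.42.0, limma 3.58.1 (voom, and log2 FPKM with pseudocounts of 1 and 0.1), a replicate block, leave-one-out fits and an adjusted p of 0.01.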

Additional observations from a re-analysis of the deposited data

How the results depend on the processing

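None of the 10 enzymes was called lower under any alternative run. The GC and length correction called 3 of the 10 higher and DESeq2 called 1. Leaving out 1 library gave 0 to 2 of the 10 called higher with TMM scaling. The 2 came without CPI-613 replicate 1, where 467 of 12776 genes (3.66%) were called higher. With the correction the range was 0 to 4 of the 10. It was 4 without CPI-613 replicate 1 (1495 of 12776 genes higher). It was 2 without CPI-613 replicate 3 (823 of 12853 genes) and 2 without Control replicate 2 (769 of 12871 genes). Over all genes, 246 were called higher and 157 lower. Leaving out 1 library gave 0 to 467 higher and 0 to 438 lower; edgeR called 0 genes when Control replicate 1 or Control replicate 3 was left out (1064 and 1118 at an unadjusted p under 0.05). With the correction 842 were called higher and 635 lower. In that fit the counts higher and lower were 1495 and 1164 without CPI-613 replicate 1, 350 and 254 without replicate 2, and 823 and 616 without replicate 3; these were 351 and 269 without Control replicate 1, 769 and 663 without replicate 2, and 367 and 279 without replicate 3. DESeq2 called 491 higher and 402 lower, and an adjusted p of 0.01 left 54 and 16. Scaling by library size only called 229 higher and 259 lower; limma on log2 FPKM called 287 lower with a pseudocount of 1 and 262 with 0.1. The cause of these shifts was not tested. The sign turned in 3 genes that were never called. ACADS was -0.0021 with library size only, -0.02 with the correction (-0.16 to 0.09 in it with 1 library left out, including -0.14), -0.20 to 0.49 with 1 library left out, and -0.04, -0.05 and -0.04 in the 3 FPKM fits. HADHB was -0.02 with library size only and -0.03 in the 3 FPKM fits, and HADH was 0.01 without CPI-613 replicate 1. Of 250 estimates of the 10 enzymes under the alternatives, 222 kept direction and side of the threshold, 14 passed it and 14 turned. Among the related genes described, 8 changed sign, all but PRKAB2 with no call in the TMM and corrected fits. With library size only ECHS1 was -0.01, ETFA -0.17 and ETFB -0.06; ETFA was also -0.08 with upper quartile factors, -0.00046 with DESeq2 size factors and -0.00049 with DESeq2. In the 3 FPKM fits ECHS1 was -0.04 to -0.05, ETFA -0.18, ETFB -0.12 to -0.13, ACSL4 -0.11 to -0.18 and PRKAB2 -0.01 to -0.02. With 1 library left out the ranges were -0.15 to 0.47 for ECHS1, -0.01 to 0.08 for ETFA, -0.23 to 0.48 for ETFB, -0.44 to 0.003 for ETFDH, -0.61 to 0.82 for ACSL4, -0.33 to 0.18 for HSD17B4, -0.41 to 0.09 for RXRA and -0.02 to 0.48 for PRKAB2. With the correction HSD17B4 was 0.01 (0.14 without CPI-613 replicate 3, 0.08 without Control replicate 3, 0.0012 with the replicate block); in it ECHS1 was -0.06 without CPI-613 replicate 3 or Control replicate 1, and ETFA -0.02 and ETFB -0.31 without CPI-613 replicate 3. Deviations of same-numbered libraries from their group means, without the correction, had correlations of 0.46, -0.10 and -0.61. CPI-613 replicate 3 and Control replicate 2 had 0.68. The spread along GC content enters these values, so they cannot show whether the numbers pair the libraries. With a replicate block 109 genes were called higher and 82 lower, and 485 and 405 with the correction. In either, 0 of the 10 enzymes were called (ACADS -0.02 with the correction). In the corrected fit the block also ended the calls of ACSF2, ABCD3, PPARGC1B, ACACA, PRKAB2 and AACS (edgeR, adjusted p = 0.0651, 0.0694, 0.0651, 0.0692, 0.124 and 0.0593), while ACSL3, CROT, VLDLR, ANGPTL4, FABP5 and ACAT2 stayed called.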
